A study of Mus musculus with 8 samples.

Results

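The genes described here make cholesterol and fatty acids and are known as targets or regulators of the sterol regulatory element-binding proteins (SREBPs). The group holds 32 named genes out of 46517 listed in the count files, and all 32 had enough reads to be among the 15382 genes tested. They were taken by gene symbol, after the Ensembl identifiers in the files had been matched to GENCODE vM21. The rule itself uses no measured value, but the members were chosen with earlier results of these data known. By function, 20 belong to the sterol arm, 7 to the fatty acid arm and 5 to the regulators of the SREBP pathway. The mRNA of whole kidneys from 8 mice was sequenced, with 1 library per mouse. The 4 Control mice (C10, C11, C13 and C14) were Xpr1lox/lox and 4 more (KO16, KO18, KO19 and KO20), the cKO mice, were Xpr1lox/lox with Pax8-rtTA and LC1. Controls were littermates of the cKO mice. In all 8 mice exon 2 of Xpr1 was flanked by lox sites, and all drank doxycycline at 2 mg/ml for 2 weeks from 8 weeks of age. Pax8-rtTA is a doxycycline-dependent activator made in kidney tubule cells, and LC1 supplies Cre recombinase under that activator. Controls carried neither transgene, so effects of the transgenes cannot be told apart from those of losing XPR1, a phosphate exporter and retrovirus receptor. Kidney cells outside the tubule are not targeted by this driver, and a whole kidney also brings in vessels, stroma and immune cells.

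Cells make cholesterol from acetyl-CoA through mevalonate, the isoprenoids, squalene and lanosterol. When membranes of the endoplasmic reticulum are rich in sterol, INSIG proteins hold the escort protein SCAP, and with it the SREBP precursors, in that membrane. When sterol is scarce, SCAP carries the precursors to the Golgi apparatus, where cleavage releases the transcription factors. The product of Srebf2 is known mainly for the sterol genes, and that of Srebf1 mainly for the fatty acid genes. In the kidney, proximal tubule cells take up much lipid and burn fatty acids for energy, while fat cells around the organ are rich in fatty acid synthesis enzymes.

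SREBPs are known to bind promoters near the start of their targets, often beside sites for NF-Y and Sp1, so the stretches before the start are shown for 5 of the 6 members that passed the test described below, and for Fasn, a classical target of the fatty acid arm. The sequences are from RefSeq on GRCm38.p6, 200 bases each, read 5′ to 3′ on the strand of the gene and ending before its annotated start. They lie at chr13:119690151-119690350 on the plus strand (Hmgcs1), chr5:4104747-4104946 on the minus strand (Cyp51), chr1:169969242-169969441 on the minus strand (Hsd17b7), chr5:28071163-28071362 on the plus strand (Insig1), chr3:89454341-89454540 on the plus strand (Pmvk) and chr11:120824548-120824747 on the minus strand (Fasn). Capitals mark matches to the sterol regulatory element TCACNCCAC, the CCAAT box known for NF-Y, and the GGGCGG box known for Sp1, on either strand, so that ATTGG and CCGCCC are their reverse forms.
Hmgcs1: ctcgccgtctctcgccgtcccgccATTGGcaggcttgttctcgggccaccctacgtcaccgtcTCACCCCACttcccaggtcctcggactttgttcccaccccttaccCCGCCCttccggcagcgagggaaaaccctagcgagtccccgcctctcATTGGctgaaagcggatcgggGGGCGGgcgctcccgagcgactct
Cyp51: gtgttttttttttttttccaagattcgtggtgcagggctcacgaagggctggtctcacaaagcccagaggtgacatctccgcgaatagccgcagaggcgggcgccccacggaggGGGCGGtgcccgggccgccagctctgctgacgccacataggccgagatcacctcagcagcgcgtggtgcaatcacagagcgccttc
Hsd17b7: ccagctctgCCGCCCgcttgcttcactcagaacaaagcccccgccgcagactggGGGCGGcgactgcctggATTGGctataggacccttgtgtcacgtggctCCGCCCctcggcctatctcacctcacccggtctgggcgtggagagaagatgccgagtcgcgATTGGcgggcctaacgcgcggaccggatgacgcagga
Insig1: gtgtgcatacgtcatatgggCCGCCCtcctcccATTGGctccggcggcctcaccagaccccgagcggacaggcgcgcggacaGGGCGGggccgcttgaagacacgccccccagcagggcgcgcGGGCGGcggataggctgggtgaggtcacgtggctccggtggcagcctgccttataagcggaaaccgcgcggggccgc
Pmvk: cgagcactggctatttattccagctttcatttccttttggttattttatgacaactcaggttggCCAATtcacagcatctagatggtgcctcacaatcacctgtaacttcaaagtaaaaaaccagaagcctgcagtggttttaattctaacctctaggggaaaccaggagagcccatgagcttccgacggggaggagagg
Fasn: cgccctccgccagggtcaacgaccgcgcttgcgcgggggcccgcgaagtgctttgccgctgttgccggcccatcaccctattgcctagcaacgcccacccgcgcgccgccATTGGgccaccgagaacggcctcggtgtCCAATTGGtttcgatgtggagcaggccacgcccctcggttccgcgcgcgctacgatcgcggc

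A sterol regulatory element in these exact letters was present in the window of Hmgcs1, 137 bases before the RefSeq start. It was in no other member that had a window, and none was at hand for Fdft1, Fdps, Scd1, Scd2, Sqle and Stard4. The windows searched ran from 250 bases before to 50 bases after the start and were at hand for 26 members, 16 of them in the sterol arm, 5 in the fatty acid arm and 5 among the regulators. Some members have several starts, so these 26 members have 34 windows. The element was thus in 1 of 34 member windows (2.94%) and in 1.24% of all 32851 windows of mouse genes. The E-box form TCACGTGA was in 0 of 34 member windows and in 0.974% of all windows. A CCAAT box was in 22 of 34 member windows (64.7%) and 37.4% of all windows, and a GGGCGG box in 24 of 34 (70.6%) and 35.7%. Counting a member once if any of its windows held the letters, CCAAT was found for 15 of 16 sterol members, 2 of 5 fatty acid members and 4 of 5 regulators, and GGGCGG for 14 of 16, 1 of 5 and 5 of 5; these counts by member have no like share over all genes here. In Fasn a forward and a reverse CCAAT box share letters and appear as a run of capitals. CCAAT boxes of Cyp51 and Hsd17b7, 29 and 12 bases before the RefSeq start, lie past the printed stretches. These matches describe letters and were not tested as sites.

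Levels are given in CPM, the counts of a gene scaled to the library's reads in genes and between libraries by TMM factors. Fold changes are log2 values, cKO minus Control, from edgeR's quasi-likelihood test. Their standard error (SE) was derived as the absolute fold change divided by the square root of the test's F statistic. A gene is said to have risen or fallen where its Benjamini-Hochberg adjusted p over all tested genes was under 0.05. Libraries held 20366113 (KO16) to 26155030 (C13) reads in genes. Xpr1 itself stood at 104 ± 19.0 CPM in Control and 16.6 ± 9.43 CPM in cKO kidneys (SD, n = 4 mice each), a fold change of -2.65 (SE 0.44, adjusted p = 0.00491), counted over the whole gene and not over the floxed exon alone. Umod, which marks the thick ascending limb, stood at 2377 CPM or more in every library, and Slc34a1, which marks the proximal tubule, at 222 CPM or more. Across all tested genes, 14.1% passed the test, 6.61% lower and 7.5% higher in cKO. Of the genes that passed, 53.2% were higher, and this share was 63.9% with upper-quartile factors and 81.2% with library totals alone, which moved the median fold change of all genes to 0.14 and 0.34 from 0.01.

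The libraries KO16, KO20 and C11 stood apart from the rest. On the first principal component (54.2% of the variance), the scores were 112 (KO16), 80.8 (KO20) and -86.1 (C11), while the remaining 5 libraries scored from -43.0 to 1.93. The length slope is that of each library's deviation on log2 exonic length, the bases in all annotated exons of a gene joined. It was -0.47 for KO16 and -0.20 for KO20, so genes of short exonic length stood high there. In C11 it was 0.28, and genes of long exonic length stood high. The slope was also 0.23 for KO18 and 0.17 for KO19. Counts set aside as not uniquely aligned made up 53.4% of the file of KO20, 49.8% of that of KO16 and 33.7% of that of C11. In the remaining 5 libraries they made up 37.6% to 43.3%. The part of this difference in the levels of members with shared sequence was not tested. Results for the members that passed, or that changed their side of the test, are therefore given both with all libraries and without KO16, KO20 and C11, which leaves 3 Control and 2 cKO mice. In that smaller set 28.2% of all tested genes passed as lower and 29.5% as higher. A member said below to pass there is to be read against these shares.

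Of the 32 members, 5 fell and 1 rose in cKO kidneys, which is 15.6% lower and 3.12% higher. The genes that fell were Hmgcs1, Idi1, Cyp51 and Hsd17b7 of the sterol arm and Insig1 of the regulators, and Pmvk of the sterol arm rose. The share of members that fell was above the share of all genes that fell, and the share that rose was below that of all genes. In the fatty acid arm 0 of 7 genes passed edgeR's test, 0 had an unadjusted p under 0.05, and DESeq2 and limma-voom also called 0. With each library's length slope added to the edgeR fit as a covariate, Elovl6 and Scd1 of this arm passed as higher. In that fit 2550 of 15382 tested genes were higher and 2561 lower. The median fold change was -0.34 over the 20 sterol genes, -0.07 over the 7 fatty acid genes and -0.48 over the 5 regulators, beside 0.01 over all tested genes. Levels of Control and cKO mice did not overlap in 10 of 32 members (31.2%), against 22.8% of all tested genes. A lower level in a whole kidney can come from fewer cells of a type or from less RNA per cell, and these cannot be told apart here.

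**Figure D1:**
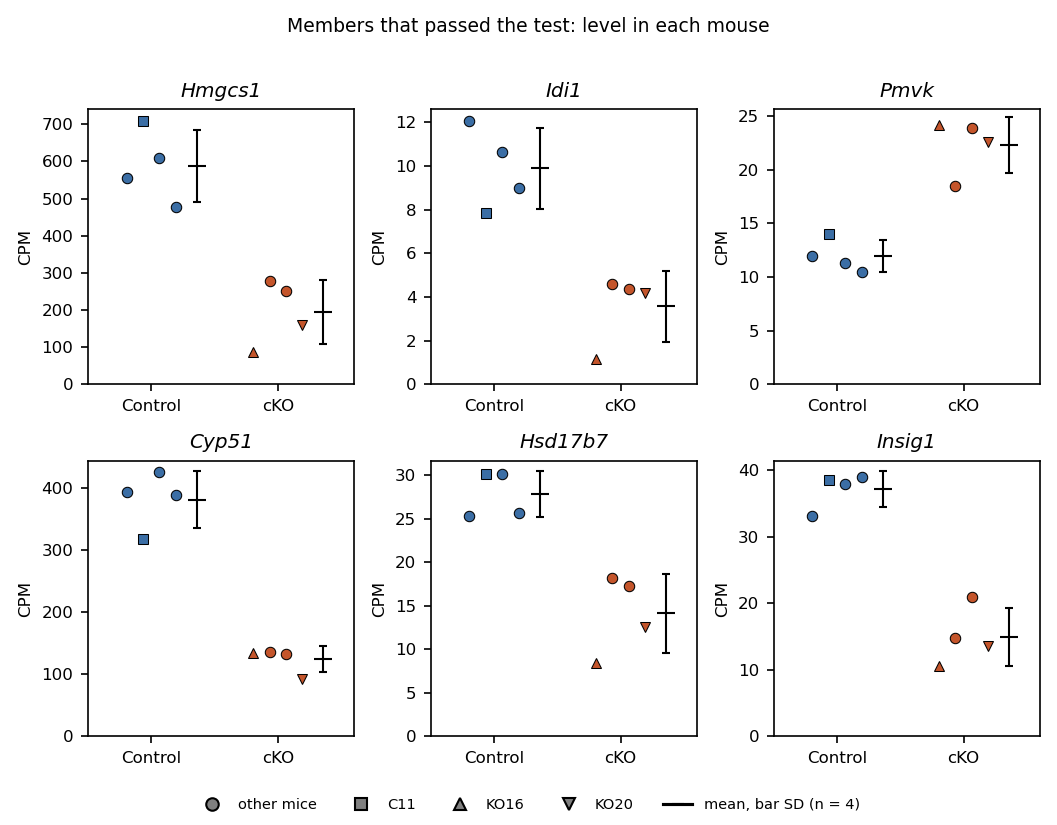
Level in CPM (counts scaled to library size, linear axis from 0) of the 6 members that passed the test, 1 point per mouse, with the mean and SD of each group of 4 beside the points. In each panel the Control and cKO points do not overlap, and the triangle of KO16 is the lowest cKO point for Hmgcs1, Idi1, Hsd17b7 and Insig1.

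The plot of levels by mouse for the members that passed shows all 6 genes with separate groups. In the early part of the pathway, from acetyl-CoA to the isoprenoids, 2 of 8 genes fell and 1 rose. Hmgcs1 (ENSMUSG00000093930, chr13:119690379-119708260, plus strand, GRCm38) encodes the cytosolic HMG-CoA synthase and had the highest level per kilobase of transcript of all 32 members in Control kidneys, 169 CPM per kilobase. Its level was 554, 709, 608 and 477 CPM in C10, C11, C13 and C14, and 88.3, 278, 252 and 160 CPM in KO16, KO18, KO19 and KO20. Every cKO mouse was below every Control mouse, with KO16 lowest. The means were 587 ± 97.5 and 195 ± 87.1 CPM (SD, n = 4 each), a fold change of -1.59 (SE 0.36, adjusted p = 0.0174), and it was -1.08 without KO16, KO20 and C11. An antisense gene, Gm48342, overlaps 557 of its exonic bases, so some reads may belong to that gene.

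Idi1 (ENSMUSG00000058258, chr13:8885501-8892451, plus strand) encodes isopentenyl diphosphate isomerase, which interconverts the isoprenoid building blocks. It stood at 12.1, 7.86, 10.6 and 9 CPM in the Control mice and at 1.17, 4.61, 4.36 and 4.18 CPM in the cKO mice, in the same order of animals. KO16 was far below the other cKO libraries, which lay close together, and all 4 were below the lowest Control mouse. The fold change was -1.46 (SE 0.39, adjusted p = 0.037), and -1.27 without KO16, KO20 and C11. The count is uncertain, because 30.5% of the 50-base windows of its main transcript also occur in transcripts of 5 other genes, 4 of them pseudogenes, and reads with several alignments were not assigned.

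Pmvk (ENSMUSG00000027952, chr3:89454541-89469013, plus strand) encodes phosphomevalonate kinase and was the only member that rose. It stood at 12.0, 14, 11.3 and 10.5 CPM in Control mice and at 24.2, 18.5, 23.9 and 22.6 CPM in cKO mice. The lowest cKO mouse was above the highest Control mouse, and KO18 was the lowest of the cKO group. The fold change was 0.90 (SE 0.20, adjusted p = 0.0162) and 0.88 without KO16, KO20 and C11. Genes of the same stretch of the pathway thus moved in opposite directions, Hmgcs1 and Idi1 down and Pmvk up.

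In 3 other genes of the early part the unadjusted p was under 0.05 without passing after adjustment. Acat2, the cytosolic thiolase that starts the pathway, stood at 67.1, 84.3, 77.4 and 64.1 CPM in Control and 57.5, 40.6, 48.6 and 30.5 CPM in cKO mice (fold change -0.72, SE 0.24, adjusted p = 0.074). Mvd, the decarboxylase that makes isopentenyl diphosphate, stood at 41.9, 48.9, 42.3 and 38.1 CPM in Control and 33.4, 22.8, 24.8 and 14.1 CPM in cKO mice (fold change -0.85, SE 0.27, adjusted p = 0.0676). The groups did not overlap in either gene, and both passed without KO16, KO20 and C11 (fold changes -0.68 and -0.81, adjusted p = 0.00156 and 0.000245). Of the windows of Acat2, 45.9% are shared with Acat3 and Tcp1, so its count is uncertain.

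Fdps, farnesyl diphosphate synthase, stood at 1.40, 1.48, 0.913 and 1.42 CPM in Control and 5.26, 1.44, 2.12 and 2.57 CPM in cKO mice (fold change 1.11, SE 0.41, adjusted p = 0.112). KO16 was the highest cKO mouse, and KO18 lay within the Control range. Shared sequence covers 86.4% of its windows, with 8 other genes of which 7 are pseudogenes, so most of its reads may be missing from the count and its low level cannot be read as low expression. The remaining kinase and branch-point enzymes overlapped between groups: Mvk, mevalonate kinase, ranged from 12.9 to 13.8 CPM in Control and 10.7 to 26.7 CPM in cKO mice. Ggps1, which makes the geranylgeranyl group used for protein prenylation, ranged from 21.6 to 42.0 and from 33.3 to 52.1 CPM.

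Of the 3 genes from squalene to lanosterol, 0 passed edgeR's test with all 8 libraries, 0 had an unadjusted p under 0.05, and DESeq2 and limma-voom called 0. Fdft1, squalene synthase, had a fold change of 0.29 (SE 0.28), with 46.4 CPM in KO16 and 20.3 to 25.9 CPM in the other cKO mice against 21.5 to 26.7 CPM in Control. It overlaps Ctsb on the opposite strand by 774 exonic bases, shares 30.7% of its windows with Ctsb and a pseudogene, and the strand setting of the counting is not given in the sources used here. Ctsb, a lysosomal protease, was counted at 618 to 654 CPM in Control and 560 to 894 CPM in cKO mice. Sqle, squalene epoxidase, is a well-known rate-limiting SREBP target and stood at 61.9 ± 11.6 CPM in Control and 62.3 ± 10.6 CPM in cKO mice (SD, n = 4 each), a fold change of 0.01 (SE 0.21). Lss, lanosterol synthase, had a fold change of -0.12 (SE 0.35), with C11 at 28.0 CPM and the other Control mice at 9.79 to 14.8 CPM. Without KO16, KO20 and C11, Sqle and Lss were higher in cKO (0.30 and 0.49, adjusted p = 0.0443 and 0.0318).

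From lanosterol to cholesterol, 2 of 8 genes fell and none rose, and 7 of 8 fold changes were negative. Cyp51 (ENSMUSG00000001467, chr5:4081145-4104746, minus strand) encodes the demethylase that acts on lanosterol. It had the second highest level per kilobase among the members in Control kidneys, 97.2 CPM per kilobase. Its level was 394, 318, 426 and 390 CPM in Control mice and 135, 136, 133 and 92.4 CPM in cKO mice. The cKO group was tight apart from KO20, and the groups were far apart. The means were 382 ± 45.6 and 124 ± 21.2 CPM (SD, n = 4 each), a fold change of -1.62 (SE 0.22, adjusted p = 0.00177), and -1.62 without KO16, KO20 and C11.

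Hsd17b7 (ENSMUSG00000026675, chr1:169949535-169969241, minus strand) encodes the ketoreductase that completes removal of the methyl groups next to the sterol hydroxyl. It stood at 25.4, 30.2, 30.2 and 25.7 CPM in Control and 8.40, 18.2, 17.2 and 12.6 CPM in cKO mice. All cKO values were below all Control values, and KO16 was lowest. The fold change was -0.98 (SE 0.27, adjusted p = 0.0397), and -0.65 without KO16, KO20 and C11. Sc5d, the sterol desaturase near the end of the pathway, stood at 68.5, 55.8, 66.7 and 58.6 CPM in Control and 50.7, 32.4, 39.3 and 40.3 CPM in cKO mice (fold change -0.62, SE 0.20, adjusted p = 0.0759). Its groups did not overlap, and it passed without KO16, KO20 and C11 at -0.89 (adjusted p = 0.000303).

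The other 5 genes of this stretch did not pass with all libraries. Ebp, the sterol isomerase, stood at 77.8 to 105 CPM in Control mice, 37.4, 48.0 and 55.1 CPM in KO18, KO19 and KO20, and 141 CPM in KO16. The library KO16 thus lay above every Control mouse while the other cKO mice lay below all of them, and the fold change of -0.41 (SE 0.40) became -1.25 without KO16, KO20 and C11 (adjusted p = 4.35e-05). Tm7sf2, a sterol reductase, showed the same arrangement, with 17.2 CPM in KO16, 7.67 to 9.07 CPM in the other cKO mice and 10.9 to 12.8 CPM in Control, though it shares 532 exonic bases with Vps51 on the same strand. Its fold change of -0.20 (SE 0.29) became -0.63 without KO16, KO20 and C11 (adjusted p = 0.00266). Nsdhl, the dehydrogenase that works with Hsd17b7, had a fold change of -0.35 (SE 0.24), Msmo1, the methylsterol oxidase, 0.20 (SE 0.21), and Dhcr7, the reductase that yields cholesterol, -0.32 (SE 0.30). Of these 3, Nsdhl passed as lower without KO16, KO20 and C11 (-0.37, adjusted p = 0.0293). Stard4, a soluble sterol carrier, stood at 91.0 to 97.1 CPM in Control and 33.5, 89.7, 82.9 and 59.9 CPM in cKO mice. Its groups did not overlap, but KO18 was only just below the Control range (fold change -0.49, SE 0.29, adjusted p = 0.326).

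**Figure D2:**
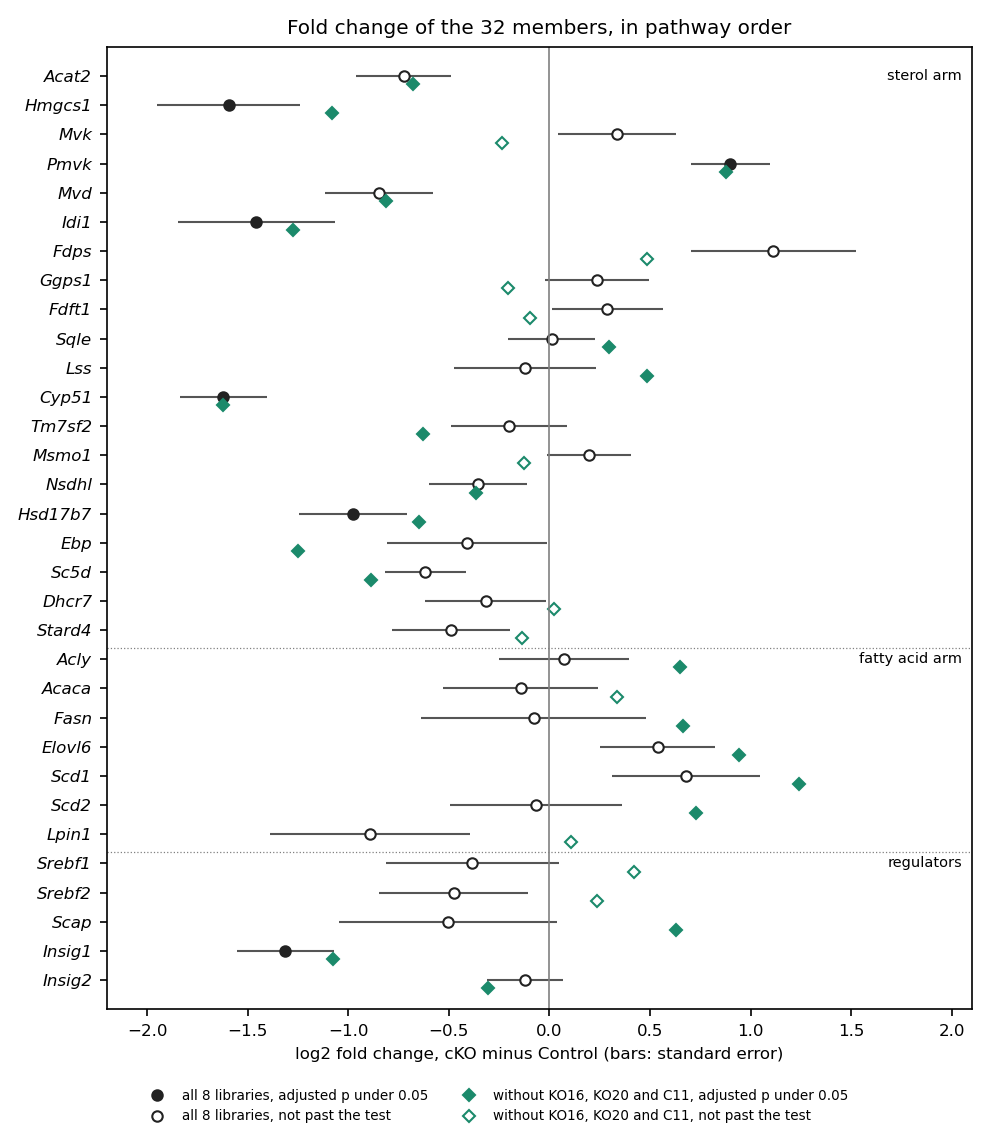
Log2 fold change (cKO minus Control) of the 32 members in pathway order, with the standard error as bars for all 8 libraries (circles) and the value without KO16, KO20 and C11 (diamonds); filled symbols passed the test. The 5 genes that fell and the 1 that rose with all libraries keep their side of 0, while the fatty acid genes lie around 0 with all libraries and all to the right of 0 without the 3 libraries.

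As the plot of fold changes in pathway order shows, the 6 genes that passed with all libraries also passed in the same direction without KO16, KO20 and C11. In that smaller set, however, 28.2% of all tested genes were lower and 29.5% higher, so many more genes passed. Of the members, 12 (37.5%) were lower and 9 (28.1%) were higher there, the second share being close to that of all genes. The sterol arm held 10 genes lower and 3 higher, with a median of -0.30. Leaving out each library in turn, Cyp51 and Insig1 passed in all 8 fits. Hmgcs1 passed in 6 and was lost without C13 or KO20 (highest adjusted p = 0.0546). Pmvk passed in 5 and was lost without C10, C13 or C14 (highest 0.0766), Idi1 passed in 3 (highest 0.0969), and Hsd17b7 passed in 2, without KO16 or without KO18 (highest 0.114). Idi1 passed only without C11, KO16 or KO18 among those fits. With library totals alone in place of TMM factors, Cyp51 still passed as lower (-1.28) and Hmgcs1, Idi1, Hsd17b7 and Insig1 had fold changes of -1.20, -1.06, -0.60 and -0.94 that did not pass.

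Summed over the sterol arm, levels were 1515 to 1766 CPM in Control and 752 to 959 CPM in cKO mice, without overlap; Hmgcs1 and Cyp51 make up most of the Control sum. The median over the sterol genes of each mouse's log2 deviation from the Control mean was -0.06, -0.46, -0.22 and -0.63 in KO16, KO18, KO19 and KO20, and between -0.12 and 0.11 in Control mice. By this median KO16 lay within the Control range, since its genes were spread widely to both sides.

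With all libraries and genotype as the sole term, no gene of the fatty acid arm passed. Its 7 genes overlapped between groups throughout. Acly, which splits citrate into cytosolic acetyl-CoA, stood at 70.1, 160, 87.3 and 86.3 CPM in Control and 96.2, 133, 129 and 66.0 CPM in cKO mice (fold change 0.07, SE 0.32). Fasn, fatty acid synthase, stood at 15.9, 80.9, 20.4 and 22.5 CPM in Control and 53.3, 32.03, 31.8 and 15.3 CPM in cKO mice (fold change -0.08, SE 0.56). In both genes C11 was the highest of all 8 mice, and in Fasn it was 4.13 times the mean of the other Control mice. Acaca, the carboxylase that makes malonyl-CoA, showed 14.04 CPM in C11 and 5.35 to 7.98 CPM in the other Control mice against 3.71 to 10.03 CPM in cKO (fold change -0.14, SE 0.38), but 52.6% of its windows are shared with a pseudogene.

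**Figure D3:**
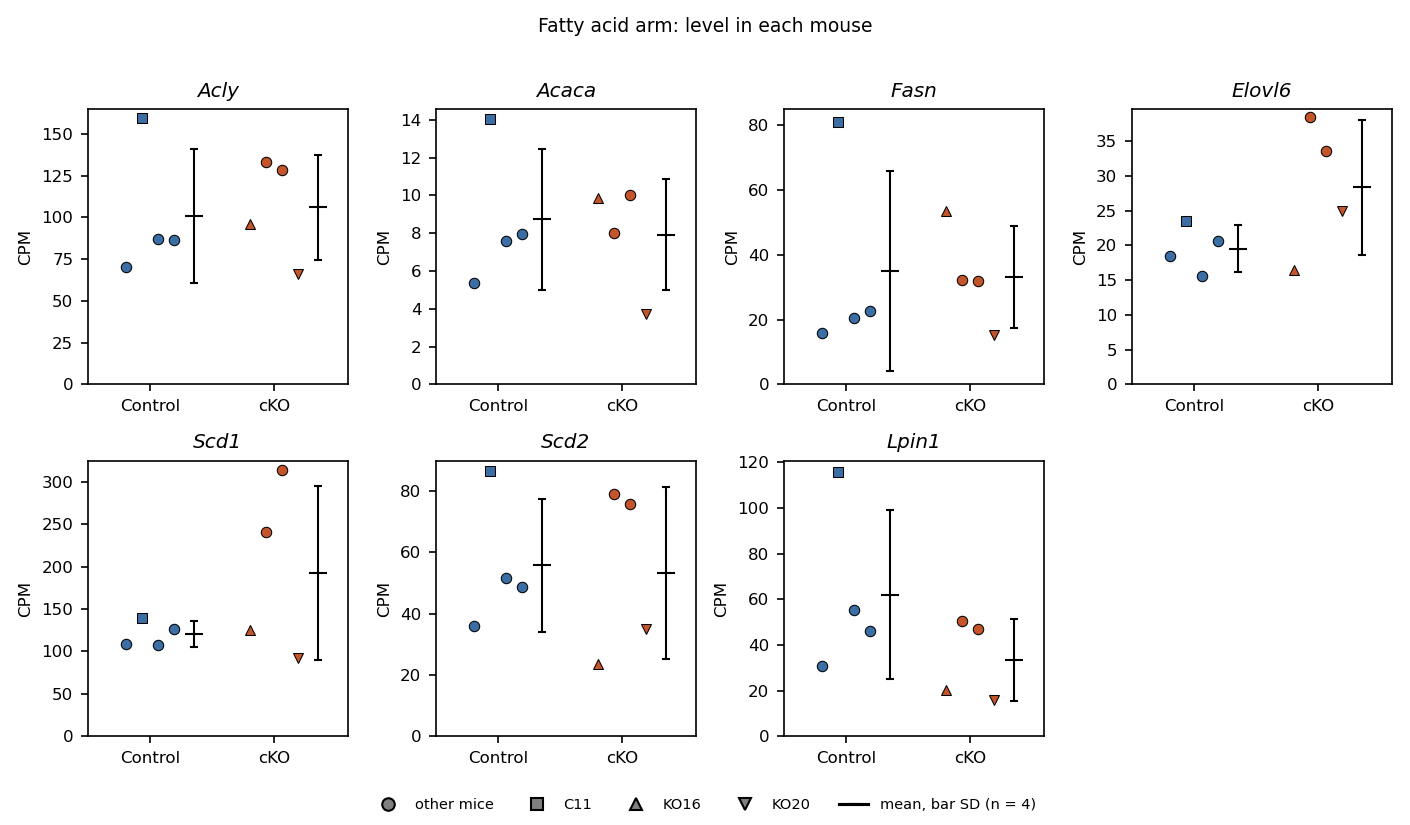
Level in CPM (counts scaled to library size, linear axis from 0) of the 7 fatty acid genes, 1 point per mouse, with the mean and SD of each group of 4 beside the points. The square of C11 is the highest Control point in every panel, and KO18 and KO19 (circles) are the 2 highest cKO points for Acly, Elovl6, Scd1, Scd2 and Lpin1.

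The plot of the fatty acid genes by mouse shows this spread within both groups. Scd1, a stearoyl-CoA desaturase, had the highest level per kilobase of the arm in Control kidneys (25.0 CPM per kilobase). It stood at 109, 140, 107 and 127 CPM in Control and 126, 241, 314 and 92.1 CPM in cKO mice (fold change 0.68, SE 0.37, adjusted p = 0.279). Elovl6, an elongase, stood at 18.5, 23.5, 15.6 and 20.6 CPM in Control and 16.5, 38.5, 33.5 and 25.0 CPM in cKO mice (fold change 0.54, SE 0.29, adjusted p = 0.269). For these genes KO18 and KO19 lay above every Control mouse, while KO16 lay within the Control range. KO20 lay above every Control mouse in Elovl6 and below every Control mouse in Scd1. Scd2, the other desaturase, had a fold change of -0.07 (SE 0.43). Lpin1, a phosphatidate phosphatase that also acts as a coregulator, stood at 30.9, 116, 55.3 and 46.1 CPM in Control and 20.1, 50.5, 47.0 and 15.7 CPM in cKO mice (fold change -0.89, SE 0.50, adjusted p = 0.29).

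Without KO16, KO20 and C11, 5 of the 7 fatty acid genes passed as higher in cKO, against 29.5% of all genes, and none as lower. These were Scd1 (1.24), Elovl6 (0.94), Scd2 (0.73), Fasn (0.66) and Acly (0.65), and the median of the arm was 0.66. With KO16 and KO20 alone left out, Scd1 and Elovl6 passed as higher and the median was 0.37. In that set 1304 of 15967 tested genes were higher and 1341 lower. Leaving out a single library moved the median between -0.24 (without C10) and 0.38 (without C11), so its sign rests on which libraries are counted. The length slope was 0.23 and 0.17 in KO18 and KO19, the cKO mice kept, and -0.08, 0.04 and 0.02 in C10, C13 and C14. Exonic lengths in this arm, the measure behind the slope, are 4892 to 17074 bases, and main transcripts have 4393 to 10050 bases. In an edgeR fit of all libraries with that slope as a covariate, Scd1 (0.80) and Elovl6 (0.67) passed as higher, beside 2550 of all 15382 tested genes. Acly (0.27), Scd2 (0.18), Fasn (0.09), Acaca (-0.01) and Lpin1 (-0.55) did not pass there. Neither the part of transcript length nor the difference between the arms was tested.

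**Figure D4:**
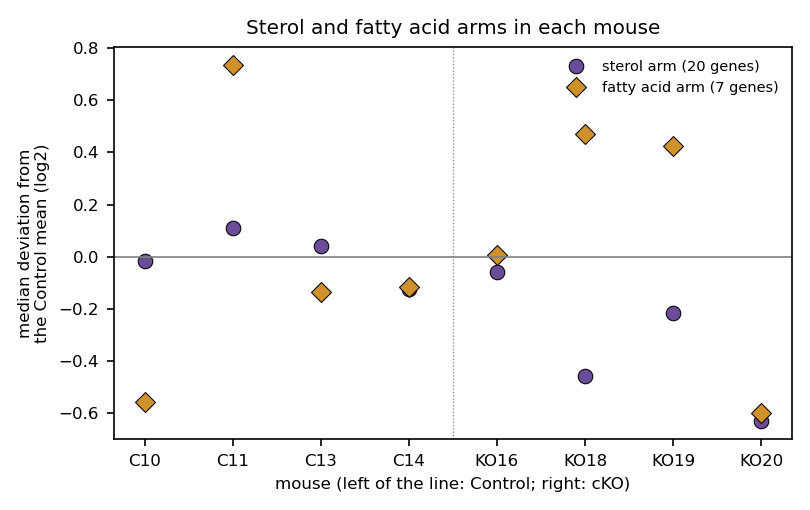
Median over the genes of an arm of the log2 deviation from the Control mean, for each mouse (circles: 20 sterol genes; diamonds: 7 fatty acid genes). The arms lie close together in KO20, C14 and KO16, and in KO18 and KO19 the fatty acid median is above 0 while the sterol median is below 0.

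The plot of arm medians by mouse sets the arms side by side. In KO18 and KO19 the fatty acid median was 0.47 and 0.42, while the sterol median was -0.46 and -0.22. In KO20 both were low (-0.60 and -0.63), and in KO16 both were near 0 (0.01 and -0.06). Among Control mice the fatty acid median ran from -0.56 in C10 to 0.74 in C11, no narrower than the range of the cKO mice. C11 was the highest Control library for 22 of the 32 members. Its ratio to the mean of the other Control mice had a median of 1.97 over the 15 members with a main transcript of at least 4000 bases and 1.09 over the 17 shorter ones.

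Among the regulators, Insig1 alone passed. Insig1 (ENSMUSG00000045294, chr5:28071363-28078662, plus strand) encodes a protein that retains SCAP in the endoplasmic reticulum and is itself a classical SREBP target. It stood at 33.1, 38.6, 38.0 and 39.0 CPM in Control and 10.6, 14.8, 21.0 and 13.5 CPM in cKO mice. The highest cKO mouse, KO19, was well below the lowest Control mouse, C10. The means were 37.2 ± 2.76 and 14.95 ± 4.38 CPM (SD, n = 4 each), a fold change of -1.31 (SE 0.24, adjusted p = 0.00761), and -1.08 without KO16, KO20 and C11. Insig2, its paralog, which is less tied to SREBP activity, stood at 62.1 ± 9.90 and 57.1 ± 4.16 CPM (SD, n = 4 each; fold change -0.12, SE 0.19). It did not pass with all libraries and passed as lower without KO16, KO20 and C11 (-0.30, adjusted p = 0.044).

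The transcription factor genes and their escort did not pass with all libraries. Srebf2 stood at 30.0, 85.8, 33.2 and 36.5 CPM in Control and 29.4, 39.9, 40.5 and 23.5 CPM in cKO mice (fold change -0.48, SE 0.37). Srebf1 stood at 10.7, 39.1, 15.1 and 14.7 CPM in Control and 14.8, 16.2, 20.9 and 9.07 CPM in cKO mice (fold change -0.38, SE 0.43). Scap stood at 29.0, 114, 41.3 and 42.7 CPM in Control and 24.1, 59.3, 60.6 and 15.9 CPM in cKO mice (fold change -0.50, SE 0.54). In all 3 genes C11 was above every other mouse, by at least 2.58 times the mean of the other Control mice. Without KO16, KO20 and C11 the fold changes were 0.24, 0.42 and 0.63, of which that of Scap passed (adjusted p = 0.00692). Scap also overlaps an antisense gene over 985 exonic bases, and which reads were counted for which strand is unknown. These values are RNA levels, and cleavage of the SREBP proteins was not measured.

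In the order of Control levels per kilobase of main transcript, Hmgcs1 (169), Cyp51 (97.2), Ebp (53.7), Nsdhl (33.7) and Acat2 (32.5 CPM per kilobase) led. Hmgcs1 and Cyp51 ranged from 138 to 205 and from 80.9 to 108 CPM per kilobase over the Control mice, so the leaders did not overlap, whereas Nsdhl and Acat2 did. In cKO kidneys Hmgcs1 averaged 56.2, Ebp 40.4, Scd1 40.0 and Cyp51 31.6 CPM per kilobase. Hmgcs1 thus led in both groups, and Cyp51 stood lower in the order in cKO kidneys. At the low end, Acaca (0.918) and Fdps (0.943 CPM per kilobase) are the members with the most shared sequence.

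Genes of related pathways were read from 5 further lists with 55 genes, of which 54 were tested. All 11 that passed with all libraries also passed in the same direction without KO16, KO20 and C11. This is no separate check, since the smaller set is part of the full one. Of all tested genes 28.2% were lower and 29.5% higher there. The counts below can be read against the 6.61% of all tested genes that were lower and the 7.5% that were higher. Of the 16 other genes of fatty acid and lipid synthesis, 5 fell (31.2%) and 1 rose (6.25%), with a median fold change of -0.26. Dgat2, which completes triglyceride synthesis, stood at 110 to 186 CPM in Control and 34.7 to 55.8 CPM in cKO mice (fold change -1.60, SE 0.26, adjusted p = 0.00432). In Fads2, a fatty acid desaturase, a fall was also seen (fold change -1.70, SE 0.34, adjusted p = 0.0116), and Me1, malic enzyme, which yields NADPH for lipid synthesis, fell by 1.15 (SE 0.21, adjusted p = 0.00802). Acss2, acetyl-CoA synthetase, and Acsl3, an acyl-CoA synthetase, which were named after their values were seen, fell by 0.87 and 0.85. Mid1ip1, whose product stimulates acetyl-CoA carboxylase, rose, with 26.8 to 29.1 CPM in Control and 42.6 to 55.9 CPM in cKO mice (fold change 0.81, SE 0.18, adjusted p = 0.0164). Some genes close to the fatty acid arm in function thus fell. With all libraries and no covariate none of the 7 members of that arm passed, and this contrast was not tested.

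Of the 10 genes of SREBP processing and turnover, 1 fell (10%), which is near the share of all genes, and the median was -0.37. Erlin1, an endoplasmic reticulum membrane protein that binds the SCAP and INSIG complex, stood at 136 to 191 CPM in Control and 69.7 to 80.8 CPM in cKO mice (fold change -1.14, SE 0.19, adjusted p = 0.0046). Its partner Erlin2 had -0.74 (adjusted p = 0.0633) and the ubiquitin ligase gene Rnf145 had -0.91 (adjusted p = 0.0829), in both cases with groups that did not overlap. DESeq2 called all 3 of these genes lower. Of 7 genes of the liver X receptors and cholesterol export, 1 rose (14.3%) and none fell, close to the 14.1% of all genes that passed in either direction, and the median was 0.11. Arl4c, a small GTPase gene known as a liver X receptor target, stood at 5.87 to 6.42 CPM in Control and 10.3 to 20.7 CPM in cKO mice (fold change 1.53, SE 0.26, adjusted p = 0.0052). Abca1, the cholesterol exporter, stood at 15.05 to 26.1 and 13.1 to 62.3 CPM (fold change 0.94, adjusted p = 0.19), and Lpcat3, another target, had -0.56 (adjusted p = 0.106).

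Of the 10 genes of the non-sterol branches of the mevalonate pathway, 3 fell (30%), with a median of -0.41. Rabggta, a subunit of the enzyme that prenylates Rab proteins, fell by 1.17 (SE 0.25, adjusted p = 0.0143), with 53.8 to 87.7 CPM in Control and 20.8 to 34.7 CPM in cKO mice. Nus1, a subunit of the enzyme that starts dolichol synthesis, fell by 0.90 (adjusted p = 0.0208), while its partner Dhdds had -0.50 (adjusted p = 0.108) and was called lower by DESeq2. Pdss1, which makes the side chain of coenzyme Q, fell by 0.78 (adjusted p = 0.0285). Of the 11 tested genes of cholesterol esterification, lysosomal release and uptake, 0 passed edgeR's test, 0 had an unadjusted p under 0.05, and DESeq2 and limma-voom called 0. The smallest p there belonged to Lipa, lysosomal acid lipase, at -0.50 (adjusted p = 0.194), and to Nceh1, a cholesterol ester hydrolase, at -0.47 (adjusted p = 0.239). Without KO16, KO20 and C11, 5 genes of this list were higher and 3 lower, beside 29.5% and 28.2% of all genes there, and Abca1, Lpcat3, Erlin2, Rnf145 and Dhdds passed in the direction of their values above.

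Markers of other cell types differed between mice along with these genes. Of 10 proximal tubule markers, 7 were lower in cKO, with a summed level of 41013 to 98471 CPM in Control and 16331 to 49192 CPM in cKO mice. Most of each sum is Kap alone, at 25570 to 91254 CPM in Control and 13485 to 46246 CPM in cKO mice. Kap did not pass edgeR's test (adjusted p = 0.096), so the sums mainly follow this 1 gene. Of 8 macrophage markers, 7 were higher, with sums of 119 to 132 CPM and 271 to 1016 CPM, the highest in KO16 and KO20. Of 5 fibroblast markers 2 were higher, with sums of 89.3 to 149 CPM and 202 to 340.3 CPM. Of 9 adipocyte markers, 8 were tested and 0 passed edgeR's test, 4 having an unadjusted p under 0.05, while DESeq2 called 3 higher (Adipoq, Cfd and Retn) and limma-voom 0. Their sums were 49.3, 4.69, 6.91 and 42.6 CPM in C10, C11, C13 and C14 and 253, 6.94, 53.8 and 209 CPM in KO16, KO18, KO19 and KO20. Lep, a defining fat cell gene, held 0 to 9 reads per library and was the marker not tested. Fasn was highest in C11, the mouse with the lowest adipocyte sum, and second highest in KO16, the mouse with the highest. Adrenal cortex, a steroid-making tissue, had summed levels of 0.621 to 1.04 CPM in Control and 0.638 to 0.992 CPM in cKO mice. Its marker Cyp11a1 was at 0 in all Control libraries and at 0.032 to 0.21 CPM in cKO mice, with at most 4 reads. Cyp21a1 was at 0 in every library but KO16 (0.053 CPM). The part of tubule, macrophage, fibroblast and fat cell content in the fold changes of the members was not tested.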

How the data were processed

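The deposited files hold raw counts of reads per Ensembl gene, whole numbers per the file headers and values, 1 file for each of 4 Control and 4 cKO mice. Per the submitters' processing notes, the authors trimmed reads with cutadapt 1.3, aligned them with STAR 2.4.0g and counted them with HTSeq 0.6.1 on GRCm38. Neither annotation release nor strand setting nor filter is named; each is not given in the sources used here. Lines that name no gene (39.7% to 56.2% of each file) were left out, and reads with several alignments were not assigned to genes. Of 46517 identifiers, 46005 matched GENCODE vM21 and 512 did not.

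Counts were fitted with edgeR 4.0.16 (R 4.3.3): TMM factors, filterByExpr (minimum count 10, minimum total 15), and its quasi-likelihood F test, with genotype as the sole term, Benjamini-Hochberg adjustment over 15382 genes and a threshold of 0.05. Log2 CPM used a prior count of 2. The script was tested on simulated data. The common biological coefficient of variation was 0.386, so the spread between mice, and not counting, limits the precision. The labels name each animal and call Controls littermates of cKO mice, without saying which mice share a litter, so litter could not be modelled and p-values measure only the spread between these libraries.

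The members, related lists and marker lists were chosen with earlier results of these data known, so lists are described by counts and medians without a test. All 32 members are named, and by rule up to 4 genes with the smallest p in each related list, to which Acss2 and Acsl3 were added after their values were seen. Alternatives were DESeq2 1.42.0, limma-voom (limma 3.58.1), scaling by RLE, by upper quartiles or by library totals, no filter, a mean of at least 1 CPM, leaving out each library, KO16 with KO20, and these with C11, and the length slope as a covariate. Shared sequence was counted as the share of 50-base windows of a member's main transcript found in a transcript of another gene.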

Additional observations from a re-analysis of the deposited data

Results flagged for a closer look

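For each of the 32 members, the highest and lowest mouse of each group was compared with the other 3 by Dixon's test at its 95% limit for 4 samples. Of 64 groups tested, 10 exceeded the limit, and chance alone gives about 5% of groups. In 4 of them the mouse was C11, high in each: Fasn at 80.9 CPM, Srebf1 at 39.1 CPM, Srebf2 at 85.8 CPM and Scap at 114 CPM. In 3 it was KO16: Idi1 at 1.17 CPM, below the other cKO mice, and Tm7sf2 at 17.2 CPM and Ebp at 141 CPM, above them. The others were Cyp51 in KO20 at 92.4 CPM, Fdps in C13 at 0.913 CPM and Insig1 in C10 at 33.1 CPM, each below the rest of its group. In Cyp51 and Insig1 these low values leave the groups apart.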

How the results depend on the processing

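Fold changes below are log2 values, cKO minus Control. The median of the sterol arm was negative in all settings, between -0.48 (without KO16) and -0.11 (without KO20) when 1 library was left out, and -0.028 with library totals alone. The median of the fatty acid arm changed sign between settings and reached 0.66 without KO16, KO20 and C11. Of the 32 members, 5 were lower and 1 higher with all libraries. These counts were 1 and 2 with library totals alone, 10 and 3 without KO16 and KO20, 12 and 9 without KO16, KO20 and C11, 9 and 3 with the length slope as a covariate, and 2 to 9 and 0 to 1 when 1 library was left out. DESeq2 gave 6 lower and 1 higher. The number of all tested genes passing was 1154 higher and 1016 lower with all libraries, and 2374 and 548 with library totals alone. It was 1711 and 1462 with DESeq2, 2550 and 2561 with the length slope, and 1304 and 1341 without KO16 and KO20. It was 4689 and 4486 without KO16, KO20 and C11, and as few as 531 and 575 without C13. The cause of these differences was not tested.

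None of the 6 members that passed changed sign. Members that did not pass changed sign as follows. With upper-quartile factors the fold change was 0.022 for Lss, 0.0054 for Acaca, 0.094 for Fasn, 0.058 for Scd2 and 0.012 for Insig2. With library totals alone it was 0.21 for Lss, 0.067 for Tm7sf2, 0.17 for Acaca, 0.17 for Fasn, 0.32 for Scd2 and 0.22 for Insig2. It was 0.12 for Fasn with limma-voom and -0.028 for Sqle without a filter. With the length slope it was 0.097 for Lss, 0.087 for Fasn and 0.18 for Scd2. Without KO16 and KO20 it was -0.21 for Mvk, -0.013 for Ggps1, -0.091 for Fdft1, 0.13 for Lss, -0.028 for Msmo1, 0.040 for Acaca, 0.47 for Scd2 and 0.073 for Scap. Without KO16, KO20 and C11 it was -0.23 for Mvk, -0.21 for Ggps1, -0.094 for Fdft1, 0.49 for Lss, -0.12 for Msmo1, 0.022 for Dhcr7, 0.33 for Acaca, 0.66 for Fasn, 0.73 for Scd2, 0.11 for Lpin1, 0.42 for Srebf1, 0.24 for Srebf2 and 0.63 for Scap. With 1 library left out, the range was -0.019 to 0.45 for Fdft1, -0.088 to 0.15 for Sqle, -0.31 to 0.26 for Lss, -0.080 to 0.38 for Acly, -0.33 to 0.18 for Acaca, -0.41 to 0.75 for Fasn, -0.32 to 0.22 for Scd2, -0.60 to 0.17 for Srebf1 and -0.78 to 0.082 for Scap. No paired analysis was possible because the labels give the groups no shared animal numbers. At the depth of these libraries, the lowest member, Fdps, held 21 to 99 reads and Idi1 22 to 250, and the others 88 or more.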
